A study of Mus musculus with 8 samples.

Results

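The comparison set the mouse adrenal gland on postnatal day 1 (P1) against the gland at 2 weeks, read through acetylation of histone H3 at lysine 27 (H3K27ac). Its members were the regions obtained by merging the broad peaks of 4 libraries on chromosomes 1 to 19: P1 female, P1 male, 2-week female and 2-week male. The union held 70627 regions, against 147792 when the peaks of all 7 immunoprecipitated libraries of the series were merged. A region was called P1-only when both P1 lists held a peak in it and neither 2-week list did, which gave 2520 regions (3.57% of the union). It was called 2-week-only in the opposite case, which gave 5226 regions (7.40%), and 25781 regions (36.5%) had a peak in all 4 lists.

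All mice were C57BL/6J, with no genetic change or treatment named. Each library came from pooled whole glands: 22 glands for each sex at P1, 12 for each sex at 2 weeks, and, for the lists used here only as an outside readout, 30 glands of undetermined sex at the late fetal stage E18.5 and 6 for each sex at 12 weeks. There was 1 library per age and sex, so the sexes stood in for replicates and no test over biological replicates could be run. Whole glands hold cortex, medulla, capsule, vessels and blood, so fewer cells of a type and less mark per cell cannot be told apart.

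H3K27ac marks active promoters and active enhancers, the distal elements that raise transcription of a gene from a distance. In the adrenal gland the cortex makes steroid hormones from cholesterol under control of the pituitary hormone ACTH and its second messenger cAMP, while chromaffin cells of the medulla make catecholamines. Around birth the cortex passes from a fetal growth state, with imprinted growth genes such as Igf2, toward zones specialised for aldosterone and corticosterone. NR5A1 (steroidogenic factor 1) is the nuclear receptor that defines steroidogenic cells, and it binds the DNA motif TCAAGGTCA as a single molecule. Estrogen-related receptors read the same letters.

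The sequences that the results below turn on are printed 5′ to 3′ in the mouse build GRCm38 (mm10). The highest-ranked P1-only promoter region and the highest-ranked P1-only distal region lay over and beside the promoter of Igf2bp3, an RNA-binding protein of fetal tissues that binds Igf2 mRNA, and 2 further P1-only regions lay over promoters of Igf2 itself. The promoter windows are from RefSeq (GRCm38.p6, 250 bases before to 50 after the start), on the minus strand at chr6:49214905-49215204 for Igf2bp3, chr7:142658755-142659054 for Igf2 and chr2:58324758-58325057 for the internal start of Acvr1c, a leading 2-week-only promoter. The Igf2bp3 distal stretch is the centre of its region, plus strand, chr6:49217482-49217781. Capitals mark CpG dinucleotides, the sites of DNA methylation.
Igf2bp3 promoter: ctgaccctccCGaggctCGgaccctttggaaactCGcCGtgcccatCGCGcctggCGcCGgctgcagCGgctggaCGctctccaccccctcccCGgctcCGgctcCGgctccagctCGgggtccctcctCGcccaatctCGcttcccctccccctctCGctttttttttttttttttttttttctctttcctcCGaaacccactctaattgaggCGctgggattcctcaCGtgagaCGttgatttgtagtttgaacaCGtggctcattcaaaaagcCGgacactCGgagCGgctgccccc
Igf2bp3 distal region: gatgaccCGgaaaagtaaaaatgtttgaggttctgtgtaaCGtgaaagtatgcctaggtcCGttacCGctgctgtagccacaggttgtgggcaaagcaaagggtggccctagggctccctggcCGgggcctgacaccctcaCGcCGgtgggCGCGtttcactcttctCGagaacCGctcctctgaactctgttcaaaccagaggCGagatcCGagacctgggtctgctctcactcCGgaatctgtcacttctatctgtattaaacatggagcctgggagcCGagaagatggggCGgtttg
Igf2 promoter: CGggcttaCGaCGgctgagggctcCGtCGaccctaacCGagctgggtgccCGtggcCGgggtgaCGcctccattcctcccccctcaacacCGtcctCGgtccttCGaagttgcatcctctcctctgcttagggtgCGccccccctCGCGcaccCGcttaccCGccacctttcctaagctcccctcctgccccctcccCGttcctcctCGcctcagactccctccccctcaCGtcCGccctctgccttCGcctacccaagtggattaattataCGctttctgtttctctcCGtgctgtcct
Acvr1c internal promoter: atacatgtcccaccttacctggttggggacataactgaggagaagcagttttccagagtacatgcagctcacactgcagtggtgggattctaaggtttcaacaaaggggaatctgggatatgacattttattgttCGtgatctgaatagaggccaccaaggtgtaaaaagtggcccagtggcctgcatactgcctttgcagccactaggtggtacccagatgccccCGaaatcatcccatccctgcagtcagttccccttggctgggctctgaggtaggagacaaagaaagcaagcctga
By script count the Igf2bp3 window held 25 CpG and 60.3% G and C, the Igf2 window 24 and 64.7% (the other Igf2 window in a P1-only region, not printed, held 14 and 49.7%), and the Acvr1c window 2 and 50.3%. The other Acvr1c start in RefSeq, with 39 CpG, did not fall in a 2-week-only region. It had a peak in the P1 male list and both 2-week lists, and none in the P1 female list.

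The next 5 stretches show the NR5A1 motif in distal regions, since its frequency differed between the classes. They are plus-strand bases around the motif from 4 of the highest-ranking 2-week-only regions with the motif outside annotated repeats, and from the highest-ranking such P1-only region, each named by its nearest gene. Capitals mark TCAAGGTCA or its reverse complement TGACCTTGA. Their positions are chr2:158253905-158254104 (Bpi), chr5:24044423-24044622 (Fam126a), chr2:92948561-92948760 (Syt13), chr4:100228136-100228335 (Ror1) and chr2:85095917-85096116 (Tnks1bp1).
Bpi, 2-week-only: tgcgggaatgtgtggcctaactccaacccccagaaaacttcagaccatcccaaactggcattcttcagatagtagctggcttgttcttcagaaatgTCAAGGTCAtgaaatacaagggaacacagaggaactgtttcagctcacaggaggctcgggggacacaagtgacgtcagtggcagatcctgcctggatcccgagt
Fam126a, 2-week-only: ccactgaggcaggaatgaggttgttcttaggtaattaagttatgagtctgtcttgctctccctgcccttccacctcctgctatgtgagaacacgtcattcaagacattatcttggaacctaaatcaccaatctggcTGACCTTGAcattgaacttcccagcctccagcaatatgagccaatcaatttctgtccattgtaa
Syt13, 2-week-only: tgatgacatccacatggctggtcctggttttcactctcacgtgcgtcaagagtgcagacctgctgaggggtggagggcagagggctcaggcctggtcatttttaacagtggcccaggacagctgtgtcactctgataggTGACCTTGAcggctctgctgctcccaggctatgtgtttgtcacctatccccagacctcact
Ror1, 2-week-only: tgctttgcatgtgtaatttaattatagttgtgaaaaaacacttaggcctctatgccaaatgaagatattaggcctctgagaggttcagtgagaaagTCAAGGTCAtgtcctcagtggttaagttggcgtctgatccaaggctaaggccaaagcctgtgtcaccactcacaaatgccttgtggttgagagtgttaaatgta
Tnks1bp1, P1-only: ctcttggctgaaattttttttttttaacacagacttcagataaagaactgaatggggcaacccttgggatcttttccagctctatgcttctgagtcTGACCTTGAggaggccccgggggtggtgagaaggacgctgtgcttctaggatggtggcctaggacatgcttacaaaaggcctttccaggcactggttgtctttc

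The lists were of similar length but covered unequal amounts of genome. On chromosomes 1 to 19 the P1 female list held 47968 peaks over 58.1 Mb, the P1 male list 43638 over 55.4 Mb, the 2-week female list 49382 over 76.1 Mb and the 2-week male list 46043 over 68.0 Mb. Read depth is unknown, and the lowest −log10 q in a list was 1.02 to 1.12, where q is the authors' false discovery value for the peak, so the mark may be present where no peak was called. The tissue label was checked on marker promoters: 19 to 20 of 21 steroidogenesis genes had a peak at a start in each of the 4 lists, against 0 of 10 kidney genes and 0 or 1 of 8 liver genes. Blood and medulla markers were called unevenly, while 12421 to 12800 of 20696 coding genes had a called promoter in each of the 4 lists. Of 22 erythroid genes, 16 and 14 had a called promoter in the P1 female and male lists and 6 and 7 in the 2-week lists. The E18.5 list had 15 and the 12-week lists 8 and 7. Of 21 chromaffin genes, the numbers were 10 and 15 at P1 and 18 and 17 at 2 weeks. They were 20 at E18.5 and 17 and 7 in the 12-week female and male lists, with no steady trend over age. The part of these cell types in the results below was not tested.

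Libraries of the same age shared more bases than libraries of different ages. The Jaccard index, the shared bases over the bases in either list, was 0.547 for the P1 pair and 0.631 for the 2-week pair, against 0.464 to 0.510 for the 4 pairs of unequal age. Same-age pairs exceeded the others by 0.101 on average, while same-sex pairs had a lower mean than the others (a difference of -0.0498). The exact one-sided permutation test over the 3 ways to pair 4 libraries gave p = 0.333, the smallest value this design allows.

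**Figure D1:**
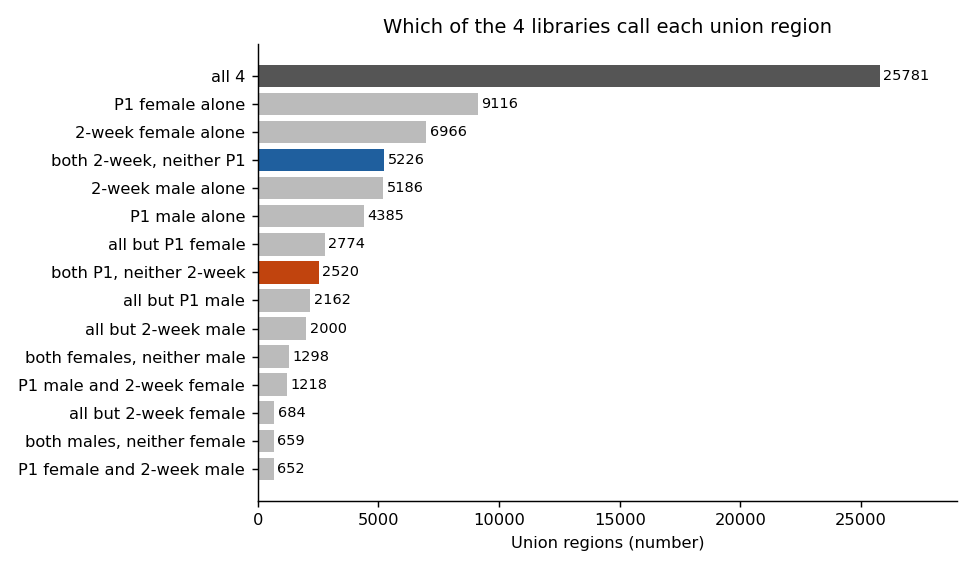
Number of union regions (horizontal axis) for each of the 15 combinations of the 4 libraries that call them. The 2 age classes, 5226 2-week-only and 2520 P1-only regions, were larger than the classes shared by both females (1298) or both males (659), and smaller than the 9116 regions called in the P1 female list alone.

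More regions separated the ages than separated the sexes. Called in both libraries of one sex and neither of the other were 1298 regions for females and 659 for males. The order of the 2 class sizes depended on how the lists were matched: with the strongest peaks of each list taken up to the same covered length of 55.4 Mb, the order turned to 6918 P1-only and 914 2-week-only regions, while with the same number of peaks it stayed (2743 and 4429). The counts alone give no direction of change. Members of both classes were weak peaks. Both lists gave a −log10 q of at least 3 in 14 P1-only and 144 2-week-only regions, and of at least 5 in 3 and 6, against 8000 of the regions called in all 4 lists. The regions called in all 4 were wider at 2 weeks: the median covered length was 1425 bp and 1424 bp in the P1 female and male lists and 1742 bp and 1602 bp in the 2-week lists. Both 2-week values lay above both P1 values in 39.9% of these regions and below them in 11.9%.

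Both age classes were mostly distal, as were the other regions not called in all 4 lists. A region counted as a promoter region within 1 kb of the start of a protein-coding transcript in GENCODE, and as distal otherwise. Promoter regions made up 6.27% of P1-only regions (158, 95% Wilson interval 5.39 to 7.28) and 5.57% of 2-week-only regions (291, 4.98 to 6.22), against 43.6% of regions called in all 4 lists and 13404 of the 70627 union regions. Among regions outside the 3 classes the share was 4.65%. The intervals cover counting error only. When the lists were limited to peaks at a −log10 q of 5 or above, the classes shrank to 56 and 766 regions and their promoter shares rose to 57.1% and 43.5%. Promoter regions of the classes also differed in base composition. The central 500 bases held on average 14.5 CpG and 52.7% G and C in P1-only promoters, 25.4 and 58.6% in 2-week-only promoters, and 31.6 and 59.5% in promoters called in all 4. At the 1 kb limit, the last P1-only region inside lay 980 bp from a start of Zscan2 and the next outside 1068 bp from Tfam, and for 2-week-only regions these were Pla2g2d at 986 bp and Slc12a8 at 1006 bp.

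At ages that did not define the classes, the 2-week-only regions were found again in the adult and the P1-only regions less often. In both 12-week lists 76.4% of 2-week-only regions had a peak, against 22.1% of P1-only regions and 62.4% of the union. Among the regions outside the 3 classes it was 39.5%. A peak in either 12-week list marked 93.7% and 49.5%, which fell to 39.1% and 6.68% at equal covered length. At E18.5 the order was the other way, with 40.6% of P1-only regions (38.7 to 42.5) and 27.6% of 2-week-only regions (26.4 to 28.8). The union, which holds a larger share of promoter regions, had 46.7%, and the regions outside the 3 classes had 26.1%. Among distal regions alone the shares were 38.5% of P1-only, 24.8% of 2-week-only and 35.8% of all. The order with P1-only above 2-week-only held between both males (33.4% and 24.0%) and turned between both females (24.6% and 26.2%). A peak at E18.5 and none at 12 weeks marked 20.6% of P1-only, 1.21% of 2-week-only and 4.64% of all regions. A further 29.9% of P1-only regions had no peak in any of the other 3 lists, against 5.09% of 2-week-only regions, 16.7% of the union and 28.9% of the regions outside the 3 classes. Of the promoter regions, 72.2% of the P1-only and 74.9% of the 2-week-only ones had an E18.5 peak. The share was 93.1% of all union promoter regions and 64.9% of those outside the 3 classes. Most 2-week-only promoters had thus been called before birth. The E18.5 list called a promoter for 14816 of 20696 coding genes, more than the 12421 to 12800 of the 4 lists compared.

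**Figure D2:**
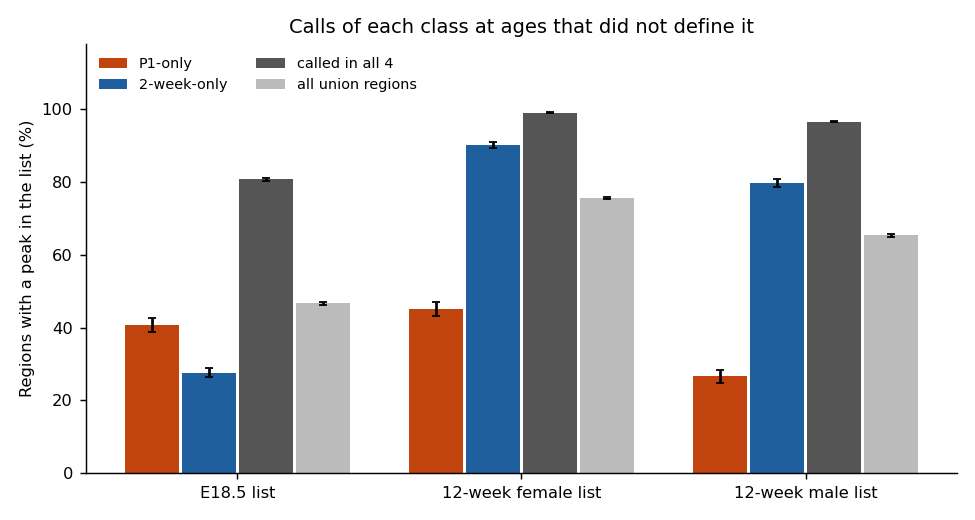
Share of each class (vertical axis, %) with a peak in the E18.5, 12-week female and 12-week male lists. Bars are shares of regions and error bars 95% Wilson intervals, which cover counting error only. P1-only regions reach 40.6% at E18.5 and 26.5% in the 12-week male list, 2-week-only regions 27.6% and 79.8%.

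Among all 20696 coding genes, 157 (0.759%) had a P1-only promoter region and 289 (1.40%) a 2-week-only one. The highest ranked P1-only promoter was that of Igf2bp3 (chr6:49213131-49216323, first exon and start), with a −log10 q of 5.95 in the P1 female and 7.41 in the P1 male list. It reached 12.6 at E18.5 and had no peak in either 2-week or 12-week list. The distal region printed above, 2322 bp from the start (chr6:49217279-49217984), was stronger at P1, with 6.98 in the female and 13.4 in the male list. At E18.5 it was weaker than the promoter region, with 8.59, and it again had no peak later. Both regions were thus called in the 3 earliest libraries. Another P1-only region of Igf2bp3, in an intron (chr6:49158417-49159648), was weak at 1.52 and 1.06 and had no peak at E18.5 or at 12 weeks. At Igf2, the imprinted fetal growth factor, the higher of 2 promoter regions (chr7:142660183-142661408) had 2.20 in P1 females, 2.51 in P1 males and 3.65 at E18.5, with no peak afterwards. The other had 1.90 and 1.796 at P1 and the same E18.5 value.

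The wider Igf2 neighbourhood was chosen after its values were seen. Between Igf2 and Mrpl23 (chr7:142532686-142666816) lay 18 union regions, of which 9 were P1-only, 0 were 2-week-only, 1 was called in all 4 and the others had other patterns. All 9 P1-only regions had a peak at E18.5 and none had one in either 12-week list. They included a region over the noncoding growth-suppressing gene H19 and its microRNA Mir675 (chr7:142575983-142578635), with 2.17 in P1 females, 2.73 in P1 males and 3.07 at E18.5. Cdkn1c, the neighbouring imprinted inhibitor of cyclin-dependent kinases, had 4 P1-only regions among its 18 distal regions, the nearest 145829 bp away inside Kcnq1. From Cdkn1c to Mrpl23 the 70 union regions held 14 P1-only, 4 2-week-only and 21 regions called in all 4.

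**Figure D3:**
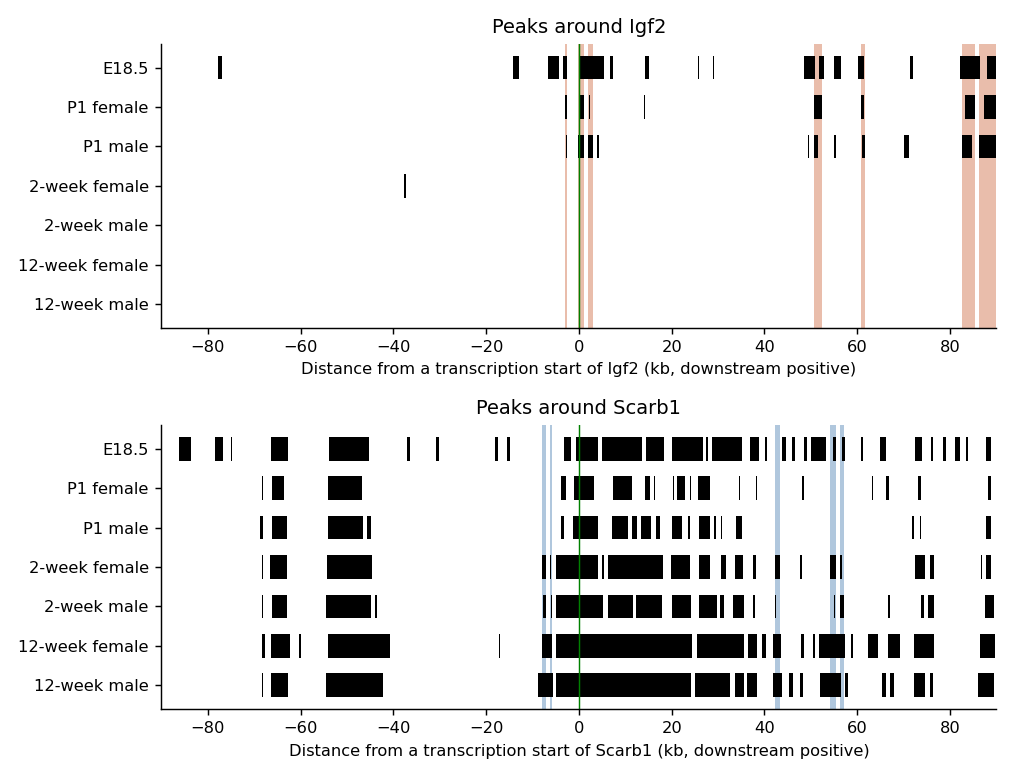
Peaks of the 7 libraries (rows, black bars) by distance in kb from a transcription start of Igf2 (top) and Scarb1 (bottom), green line at the start. Orange bands are P1-only and blue bands 2-week-only regions. At Igf2 the bands coincide with E18.5 peaks and the rows from 2 weeks on are empty but for 1 peak in the 2-week female list. At Scarb1 the 5 blue bands have peaks in both 12-week rows.

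Of the 15 highest P1-only promoters, 13 had a peak at E18.5 and 7 had none at 12 weeks. An E18.5 peak marked 72.2% of all P1-only and 93.1% of all union promoter regions, and a 12-week female peak 46.8% and 94.8%. Wt1, a transcription factor of the urogenital ridge and adrenal capsule, had a −log10 q of 2.47 and 2.94 at P1 (female and male), 3.40 at E18.5 and 2.26 in 12-week females. An internal start of Gata4, a transcription factor of the fetal adrenal, had 1.94 and 2.59 at P1, 2.58 at E18.5, and 3.53 and 1.11 at 12 weeks. Gria4, an AMPA-type glutamate receptor subunit, had 2.85 and 3.15 at P1 and 6.09 at E18.5, with no peak at 12 weeks. Pif1, a DNA helicase, was called in none of the other lists. Others were Nup93 (a nuclear pore subunit), Itga4 (an integrin), Krt18 (a keratin), Qprt (an enzyme of NAD synthesis), Slc6a9 (a glycine transporter), Klhl38, Folh1 and Myt1l, with values between 1.98 and 3.23 in the P1 lists.

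Across the 26 gene lists, 12 of 469 matched genes had a P1-only promoter region, against 0.759% of all coding genes. Red-cell genes made up 5 of them, from a list of 22. Epb42 and Slc4a1, a red-cell membrane protein and the anion exchanger band 3, had −log10 q values of 1.91 and 3.202, and 2.06 and 1.77, in the P1 female and male lists. Hbb-bs and Hba-a2, adult globins, had 2.13 and 1.54, and 1.93 and 1.23. Both globin loci carry near-identical copies, so their reads may be split or dropped and these calls are uncertain. Trim10, an erythroid ubiquitin ligase family member, had 1.59 and 1.14. None of these 5 had a peak at 12 weeks. The erythroid list as a whole fell from 16 and 14 called promoters at P1 to 6 and 7 at 2 weeks, the values given above. The other members were the homeobox genes Hoxa9 and Hoxc9, the Wnt inhibitor Sfrp2, the glial marker S100b, Wt1, Igf2 and Igf2bp3.

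The highest ranked 2-week-only promoter was that of Ly6d, a lipid-anchored surface antigen (chr15:74759735-74763809), with a −log10 q of 6.88 in 2-week females and 4.86 in 2-week males. It had 2.63 at E18.5 and 5.82 and 5.08 in the 12-week female and male lists. All 15 of the highest had a peak in a 12-week list and 14 in both. Peaks in both 12-week lists marked 73.2% of all 2-week-only promoter regions and 89.8% of all union promoter regions. Cdkn2b, an inhibitor of cyclin-dependent kinases, had 4.09 and 3.99 at 2 weeks and 18.7 and 7.43 at 12 weeks. The internal start of Acvr1c, an activin-type receptor from the X-zone list, had 4.82 and 3.54 at 2 weeks, 6.22 and 2.67 at 12 weeks, and 3.03 at E18.5. Caln1 and Cmtm2a were the 2 of the 15 with no E18.5 peak, at 4.296 and 4.13, and 4.18 and 4.34, at 2 weeks. Others were Gng7 (a G-protein subunit), Erc2 (a presynaptic scaffold), Bcan (a brain proteoglycan) and Aplp1 (a relative of the amyloid precursor protein), with values between 2.72 and 4.95. The rest were Rapgefl1, Gm9774, BC016579, Tdrkh, Wscd1 and Sel1l3.

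From the same gene lists, 11 of 469 genes had a 2-week-only promoter region, against 1.40% of all coding genes. All but the fatty acid transporter Cd36 had a peak there at E18.5, as did 74.9% of all 2-week-only and 93.1% of all union promoter regions. The 2 Cd36 regions had a −log10 q of 2.85 and 1.96, and 2.40 and 1.44, at 2 weeks and a 12-week peak in females alone. Pnmt, which makes adrenaline from noradrenaline, had a −log10 q of 1.85 and 1.46 at 2 weeks, 1.97 at E18.5 and 2.51 in 12-week females, in a region it shares with Tcap. Snap25, a protein of vesicle release, had 1.89 and 3.19. The chromaffin list as a whole had more called promoters at 2 weeks than at P1, in males 17 against 15, but also 20 at E18.5, as given above. Kcnk9, a potassium channel of the zona glomerulosa, had 3.46 and 2.41 at 2 weeks, 3.23 at E18.5, and 4.63 and 2.82 at 12 weeks. Notum and Lgr5, an extracellular Wnt inhibitor and a receptor that amplifies Wnt signals, had 2.56 and 2.46, and 1.81 and 2.80, at 2 weeks. The others were Cidea, Fabp3, Thy1 and Hey2. A promoter region called before birth, in neither P1 list and again at 2 weeks is not shown to be a gain. Outside these regions, Hey2 had a peak within 1 kb of a start in the P1 female list and Acvr1c in the P1 male list.

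Each distal region was assigned to the nearest coding start, which says where it is and not which gene it serves. P1-only regions were 4.13% of the 57223 distal regions, 2-week-only regions 8.62% and regions called in all 4 lists 25.4%. Of all coding genes, 8.59% were nearest to a P1-only and 14.8% to a 2-week-only distal region. Genes of steroid synthesis and cholesterol supply stood on the 2-week side: of 111 distal regions nearest to them, 19 (17.1%) were 2-week-only and 0 were P1-only. By step of the pathway, the 19 included 5 at Scarb1, the receptor that takes up HDL cholesterol, 1 each at the cholesterol handlers Npc1 and Tspo, and 4 at Mc2r, the ACTH receptor, 159587 to 400211 bp from its start. A further 2 lay at Cyp11a1, which makes the first steroid, 2 at its electron donor Fdx1, and 1 each at Hsd3b1, at Akr1b7 and at Nr5a1. By merged region, none of these promoters was P1-only or 2-week-only, and 20 of 21 list genes had a promoter region called in all 4 lists. Hsd3b1 was among the 20, although no P1 female peak lay within 1 kb of its start. Hsd3b6 had no called promoter in any of the 4 lists.

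The region nearest to Nr5a1 (chr2:38727842-38732193, 13300 bp from the start, inside the neighbouring gene Nr6a1) was the strongest of the 19. It had a −log10 q of 5.03 in 2-week females and 4.17 in 2-week males, no peak at E18.5, and 6.76 and 3.85 in the 12-week female and male lists. One Cyp11a1 region (chr9:58001816-58005036, 9635 bp from the start) had 2.53 and 2.06 at 2 weeks, 1.67 at E18.5, and 7.91 and 7.66 at 12 weeks. The Hsd3b1 region (chr3:98842992-98843690) had 2.93 and 1.79 at 2 weeks, no E18.5 peak, and 11.2 and 5.74 at 12 weeks. The other Cyp11a1 region, nearby, had 2.301 and 2.58 at 2 weeks and the same 12-week values. The Scarb1 regions were weak, between 1.26 and 2.12 at 2 weeks. In all, 17 of the 19 regions had a peak in both 12-week lists and 7 at E18.5. These shares were 76.6% and 24.8% for all distal 2-week-only regions, and 55.9% and 35.8% for all distal regions. Neighbouring regions at Scarb1 overlapped the same 12-week peaks and those at Cyp11a1 had the same 12-week values, so the 17 are not independent. With the lists cut to the same covered length, the steroidogenesis share of 2-week-only regions was 6.58% against 1.98% of all distal regions, and that of P1-only regions 7.89% against 15.3%. With the same number of peaks, the 2-week-only shares were 17.8% against 8.09%, and the P1-only share was 0. Within one sex alone, the 2-week-only shares were 44.8% against 33.1% in females and 49.0% against 32.5% in males. The P1-only shares were then 13.5% against 26.4% and 5.77% against 24.0%, so the count of 0 did not hold within either sex.

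**Figure D4:**
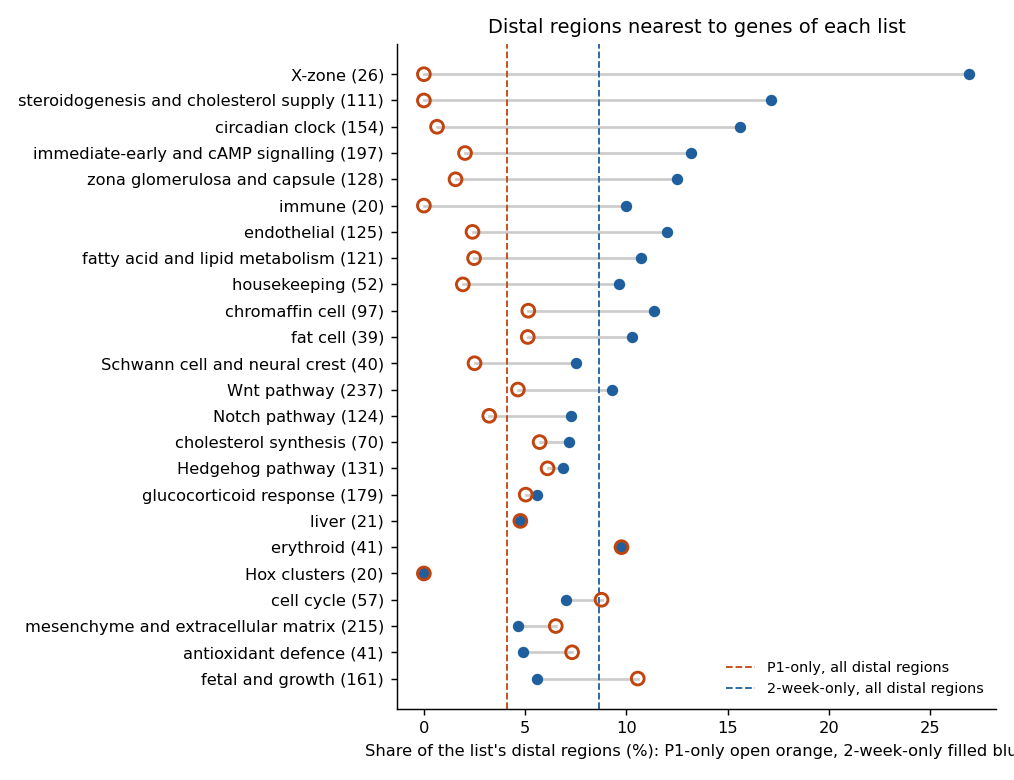
Share of the distal regions nearest to genes of each list (number of regions in brackets) that were P1-only (open orange) or 2-week-only (filled blue), for the 24 lists with at least 20 distal regions. Dashed lines give the same shares over all distal regions, 4.13% and 8.62%. Lists run from fetal and growth genes, with the larger P1-only share, to X-zone and steroidogenesis genes, with no P1-only region.

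Of the 24 lists with at least 20 distal regions, 13 had a 2-week-only share above the 8.62% of all distal regions, housekeeping genes (9.62%) among them. Genes of immediate-early and cAMP signalling had 26 of 197 (13.2%), with 6 at Pde8b, a phosphodiesterase that degrades cAMP in the cortex, 4 at Fosl2, an AP-1 subunit, and the same 4 at Mc2r. That list did not keep its place at equal covered length (1.46% against 1.98%) or when only peaks at a −log10 q of 5 or above were used (4.35% against 13.2%). Zona glomerulosa and capsule genes had 16 of 128 (12.5%), with 5 at Kcnk9, 3 at Wnt4, a signal of the outer cortex, and 3 at Shh, the signal from outer cortex to capsule. X-zone genes, the mouse's transient inner zone of fetal origin, had 7 of 26 (26.9%). Of these, 3 each lay at Acvr1c and at Thrb, the thyroid hormone receptor of that zone, and 1 at Pik3c2g. The list has 6 genes, and its members Akr1c18, Cyp17a1 and Inha had none. Akr1c18 and Cyp17a1 also had no called promoter in any of the 7 lists. Endothelial genes had 15 of 125 (12.0%), with 4 at Kdr, the VEGF receptor, and 3 at Tek, the angiopoietin receptor. Circadian genes had 24 of 154 (15.6%), of which 16 belonged to Rora alone, and fell below all distal regions among peaks at a −log10 q of 5 or above (11.1% against 13.2%). The number of list genes and regions is small in several of these, and no list was tested against the rest.

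Rora, a nuclear receptor that activates clock genes, was the gene nearest to most 2-week-only regions. Of its 75 distal regions 16 were 2-week-only and 0 P1-only, against 8.62% and 4.13% of all distal regions. All 16 had a peak in both 12-week lists and 1 had one at E18.5. For all distal 2-week-only regions these shares were 76.6% and 24.8%. Next came Fgfr2, a receptor of fibroblast growth factors, with 15 of 52, Cacna1c, the L-type calcium channel, with 13 of 56, and Arid1b, a chromatin remodeller subunit, with 12 of 72. Gramd1b, a carrier of cholesterol from the plasma membrane, had 10 of 40 and Gna14, a G-protein subunit, 10 of 33, with 9 of each called in both 12-week lists. Limch1 had 11 of 30, Dlg2 11 of 34, Myc 11 of 59 and Mbnl1 10 of 38, so the order by share differed from that by number. All 13 regions at Cacna1c lay inside the gene, whereas the 11 at Myc lay outside it, 65850 to 889439 bp from the start.

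Fetal and growth genes had 17 P1-only regions among 161 (10.6%, against 4.13% of all distal regions) and 9 2-week-only regions (5.59%). The 17 comprised 4 at Cdkn1c, 3 at Igf2, 3 at Hmga2, a chromatin protein of proliferating fetal cells, 2 each at Igf2bp3, at Dlk1 and at Mest, the last 2 imprinted, and 1 at Igf2bp1. The receptor Igf1r stood on the other side with 6 2-week-only regions, the strongest (chr7:68095460-68098614) at 5.40 and 4.88. At equal covered length the P1-only share of the list was 25.6% against 15.3%, and with the same number of peaks 12.0% against 4.97%. Mesenchyme and matrix genes had 14 P1-only regions among 215 (6.51%), 5 of them at Twist2, a transcription factor of mesenchyme, and 10 2-week-only regions (4.65%). Its P1-only share was 28.2% at equal covered length and 52.5% in males alone (24.0% of all distal regions), above the fetal and growth list (25.6% and 40.7%). In females alone it was 30.2%, below that list (33.1%) and against 26.4% of all, and it was 0% with peaks at a −log10 q of 5 or above. In 4 of 24 lists the P1-only share exceeded the 2-week-only share, the other 2 being cell cycle (8.77% and 7.02%, 57 regions) and antioxidant defence (7.32% and 4.88%, 41 regions). Hedgehog genes were near even with 8 and 9 of 131, and glucocorticoid response genes with 9 and 10 of 179. The remaining lists held P1-only and 2-week-only regions in these numbers: Wnt 11 and 22 of 237, Notch 4 and 9 of 124, lipid metabolism 3 and 13 of 121, chromaffin cell 5 and 11 of 97 and cholesterol synthesis 4 and 5 of 70. Housekeeping genes had 1 and 5 of 52, erythroid genes 4 and 4 of 41, Schwann cell genes 1 and 3 of 40, fat cell genes 2 and 4 of 39, liver genes 1 and 1 of 21, immune genes 0 and 2 of 20, Hox clusters 0 and 0 of 20, skeletal muscle genes 2 and 0 of 12 and kidney genes 0 of 4.

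By single genes, Rad51b, a recombination protein, was nearest to most P1-only regions with 8 of 51, against 4.13% of all distal regions. All 8 lay inside the gene, and 3 had a peak at E18.5 and 1 in both 12-week lists. For all distal P1-only regions these shares were 38.5% and 22.6%. Fcnb, a lectin of myeloid cells, had 6 of 14 and Phactr2, a regulator of actin, 6 of 25, and none of these 12 had a peak in a 12-week list. Maml2, a Notch coactivator, and Trib1, a pseudokinase, also had 6, and Adam12, Arhgap5, Frmd4a, Kdm8 and 4930558K02Rik 5 each. Some of these genes held regions of both classes, with 7 2-week-only regions among the 42 distal regions of Frmd4a and 3 among the 36 of Trib1. The strongest P1-only distal regions after that of Igf2bp3 lay at BC107364, Xpnpep1, Fam126a, Dock8, Slc2a3, Bcas1, Tut7, Agfg1 and Tmpo, with values of 2.83 to 5.73 in P1 females. On the 2-week side the strongest lay 25952 bp from Cst3, a protease inhibitor (chr2:148901528-148902585), at 10.4 and 6.98. It was followed by regions at Tmem231, Efhd1, Sardh, Luzp2, Agxt2, Igf1r, Dhx35 and Mdfic. Of the 10 highest, 9 had a peak in both 12-week lists, against 76.6% of all distal 2-week-only regions and 55.9% of all distal regions.

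Sequence, which played no part in the choice of the classes, differed in the NR5A1 motif by more than counting error. The shorter core CAAGGTCA, which the long form contains, was searched on both strands in the central 500 bases of every distal region. It occurred in 7.52% of 2-week-only windows (371 of 4935, 95% Wilson interval 6.81 to 8.29) and 3.77% of P1-only windows (89 of 2362, 3.07 to 4.61), against 5.10% of distal regions called in all 4 and 5.12% of all distal regions. The long form TCAAGGTCA gave 2.84% and 1.14%, against 1.85% of all. The core's letters reversed, a control for base composition, gave 1.97% and 1.91%. Reversed letters of other motifs did differ: AATAGA, from the GATA motif, was found in 21.1% of 2-week-only and 17.7% of P1-only windows, and GTCTAC, from the E-box, in 15.2% and 12.1%, with intervals that did not overlap. Letters with no factor assigned to them thus also separated the classes beyond counting error, by smaller ratios than the NR5A1 core. Because part of the matches lie in repeats, the search was repeated outside annotated repeats, where the core gave 6.04% and 3.09%. The difference between the classes, 3.75 percentage points, was 3.64 when all lists were cut to equal numbers of peaks, 3.66 at the same covered length, and 1.96 and 1.70 in females and males taken alone. With only peaks at a −log10 q of 5 or above it was 1.84 with an interval of -14.3 to 6.17, so the classes were not separated there.

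Among 2-week-only regions the core share was 7.11% in those with and 7.65% in those without an E18.5 peak, and 7.44% in those called in both 12-week lists. Among P1-only regions these shares were 3.85%, 3.72% and 3.56%. The motif region near Bpi printed above had a −log10 q of 3.62 and 3.30 at 2 weeks, 2.60 at E18.5, and 5.11 and 4.93 at 12 weeks, and that near Fam126a 3.27 and 4.17 at 2 weeks, none at E18.5, and 10.6 and 4.54 at 12 weeks. Of the 19 regions near steroidogenesis genes 2 held the core, among them 1 at Cyp11a1, too few to set against the 7.52% of all 2-week-only windows, and both matches lay in annotated repeats. Of the other motifs searched, ATCAAAG, bound by the Wnt effectors TCF and LEF, was found in 9.48% of 2-week-only and 6.90% of P1-only windows (7.93% of all), and TGANTCA, bound by AP-1, in 21.2% and 18.6% (18.4% of all). TGACGTCA, the cAMP response element, was found in 0.892% and 0.423% (0.538% of all), from 44 and 10 windows. CAGGAAGT, bound by ETS factors, ran the other way at 5.84% and 7.71% (6.59% of all). AGATAA, bound by GATA factors, was near even at 26.0% and 25.9%. So were TEAD (GGAATG, 27.5% and 27.8%) and AGAACA, part of the glucocorticoid receptor's site (40.9% and 41.1%). The E-box CATCTG was somewhat lower in 2-week-only windows (36.1% and 38.4%), with intervals that overlapped. FOX (GTAAACA) gave 7.46% and 8.89% and SP (GGGGCGG) 3.91% and 4.66%, 2-week-only first. In the central 200 bases the FOX order turned (3.24% and 3.05%) and the ETS intervals overlapped (2.59% and 3.13%). A match describes the letters and is not a bound site.

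**Figure D5:**
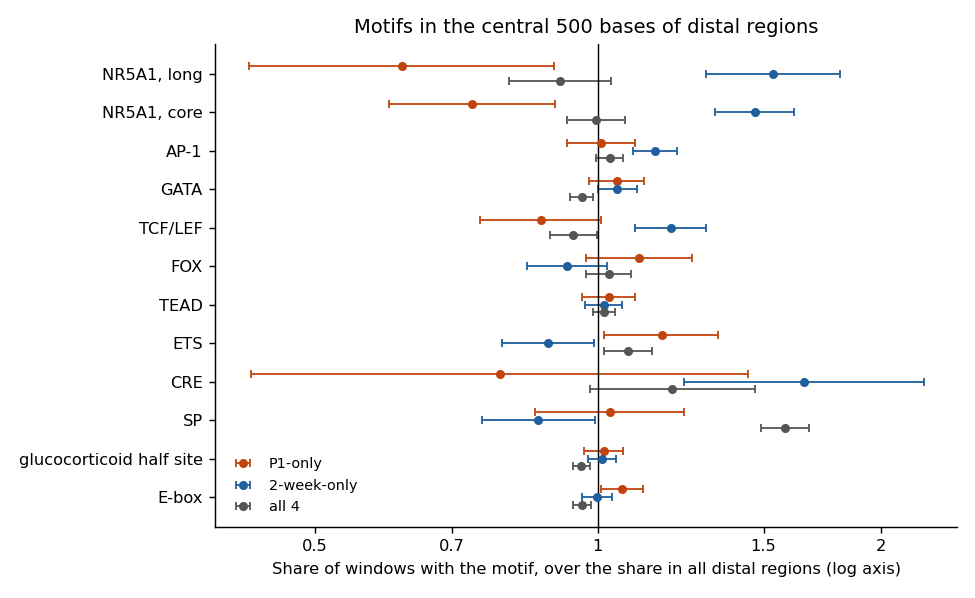
Share of central 500-base windows of distal regions that hold each motif, divided by the share in all distal regions (log axis), for P1-only, 2-week-only and regions called in all 4 lists. Points are shares and bars 95% Wilson intervals divided by the same share. The intervals of the age classes do not overlap for the NR5A1 forms, TCF/LEF and ETS in these windows, with 7.52% of 2-week-only and 3.77% of P1-only windows holding the core.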

How the data were processed

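The authors deposited 1 broad peak list per library, made from chromatin immunoprecipitated with an H3K27ac antibody. Per the submitters' processing notes, CASAVA 1.8.2, Bowtie2 2.3.4.3, MACS2 2.1.1 and deepTools 3.2.2.0 were used with build mm10. The peak cutoff, the use of the input library and the read filters are not given in the sources used here. Each deposited peak carries the authors' score, fold enrichment and −log10 p and −log10 q values. The lists hold no read counts, so depth is unknown.

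From these, peaks of the 4 lists on chromosomes 1 to 19 were merged where they overlapped or touched, and a library called a region when 1 of its peaks shared at least 1 base with it. A region's −log10 q is the highest of its peaks, and the 12-week and E18.5 calls were made on the same regions. Starts of 39540 protein-coding transcripts came from GENCODE, sequences and repeat marks from RefSeq GRCm38.p6. Of 480 list genes, 469 matched an autosomal coding gene. Members and gene lists were chosen with earlier results of these data known. The named genes were, per class, the 15 promoter and 10 distal regions with the highest lowest within-list percentile of −log10 q, the 10 genes nearest to most distal regions, and every list gene with a promoter region of the class. A few genes that this rule or the lists name are not reported here. Merging and overlaps were checked against bedtools 2.31.1 and on simulated lists. Work was done in Python 3.11.15 with pandas 2.3.3, scipy 1.17.1 and pysam 0.24.0. No unit other than these was used, and the input library was not analysed here.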

Additional observations from a re-analysis of the deposited data

Results flagged for a closer look

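The number of strong peaks moved in opposite ways in the sexes. Peaks at a −log10 q of 5 or above numbered 8660 at P1 and 12062 at 2 weeks in females, 3402 more, and 10275 and 10100 in males, where they fell by 175. With 1 library per age and sex, the difference between the sexes was not tested.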

How the results depend on the processing

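Of the main values recomputed under other settings, 41 stayed within their error or within 1.5 times, 67 moved beyond it and 1 reversed. Among values for single regions or lists, 35 stayed and 55 moved. For the NR5A1 difference, the settings of the classes and the search outside repeats were chosen after seeing the data. The cause was not tested for any change.

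The difference of 2706 regions between 2-week-only and P1-only reversed at the same covered length, to -6004 (914 and 6918 regions). There the 2-week-only promoter share was 8.53%, the E18.5 shares 30.5% (P1-only) and 18.4% (2-week-only), and the shares in a 12-week list 6.68% and 39.1%. With the same number of peaks the difference was 1686, the E18.5 shares 20.5% and 12.8%, and the 12-week shares 34.7% and 86.6%. With only peaks of −log10 q of at least 5, there were 56 P1-only, 766 2-week-only and 8000 shared regions, a difference of 710. Promoter shares were then 57.1% and 43.5%, E18.5 shares 46.4% and 29.5%, 12-week shares 82.1% and 98.2%, and the NR5A1 difference 1.84 points. With presence at that strength and absence at any, 3 and 6 regions remained besides the 8000, a difference of 3. Promoter shares were 33.3% and 0%, E18.5 shares 100% and 50%, 12-week shares 33.3% and 83.3%, and the NR5A1 difference 0 (-65.8 to 39.0).

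When at least 50% of a region had to be covered, 13924 regions were shared, the difference was 4885, promoter shares were 11.1% and 10.8%, and E18.5 shares 27.0% and 17.6%. In females alone the classes held 13589 and 17274 regions, with a P1-only promoter share of 4.05%, E18.5 shares of 24.6% and 26.2%, 12-week shares of 43.2% and 83.8% and an NR5A1 difference of 1.96 points. In males alone they held 10994 and 14707, with promoter shares of 5.36% and 4.41%, E18.5 shares of 33.4% and 24.0%, 12-week shares of 59.1% and 85.2% and an NR5A1 difference of 1.70 points. In females alone the order of the E18.5 shares was thus the opposite of the reported one. In the union of 7 lists the difference was 1774 and the 2-week-only shares were 6.66% (promoter), 30.5% (E18.5) and 92.2% (12 weeks). Merging across 1 kb put 47.4% of P1-only regions in a 12-week list. A promoter window of 2 kb gave promoter shares of 7.98% and 7.44%, and one of 0.5 kb gave 4.96% for 2-week-only regions. The NR5A1 difference was 1.82 points in the central 200 bases and 0.0604 for the reversed letters.

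The ages were compared within each sex as given above, and no model was fitted to the calls. Peak lists without reads leave depth unknown, and most members of both age classes lie close to the calling limit.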
